A study of Mus musculus with 15 samples.

Results

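The inflammatory cytokines described here are 10 secreted or releasable signaling proteins, Il1a, Il1b, Il18, Il33, Tnf, Il6, Lif, Osm, Il10 and Il12b, whose mRNA was measured in mouse brain tumors and in naïve brain. They were chosen by name from the 46679 genes of the deposited tables, matched through their Ensembl identifiers, and 9 of the 10 were among the 17481 genes with enough counts to be tested. Il10 fell under that filter. RNA sequencing of bulk tissue was performed on 15 samples in 5 groups of 3 C57BL/6 mice each, namely naïve brain without a tumor and end-stage CT2A, GL261, 005 and Mut3 tumors. All tumors were grown from cells carrying GFP and firefly luciferase, implanted into the right hemisphere of mice 6 to 8 weeks old, with 100000 cells for CT2A, GL261 and 005 and 500000 cells for Mut3. Mice were perfused with phosphate-buffered saline before tissue was taken. CT2A and GL261 are chemically induced glioma lines, and 005 and Mut3 come from tumors of genetically altered mice. Each model is 1 cell line, so line and origin cannot be told apart where the origins differ. In comparisons of Mut3 with the other tumors, cell dose cannot be told apart from line either.

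Cytokines of the IL-1 family, IL-1α, IL-1β, IL-18 and IL-33, signal through related receptors that use the adaptor MyD88 and activate NF-κB. IL-1β and IL-18 are made as inactive precursors and cut by caspase-1 in inflammasomes, whereas IL-1α and IL-33 are kept in cells and act as alarm signals when released. TNF is released from the cell surface by the protease ADAM17, the IL-6 family (IL-6, LIF and oncostatin M) signals through the shared receptor gp130 to STAT3, IL-10 restrains myeloid cells, and IL-12p40, the product of Il12b, is a subunit of both IL-12 and IL-23. In brain, microglia are a source of IL-1β and TNF, while IL-33 is found in nuclei of astrocytes and oligodendrocytes.

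Promoter sequences are shown for Il1a, Il18, Lif and Il33, which are 4 of the 6 members called different in at least 1 comparison below, and for Il6, which holds the most motifs. The promoters of the other two, Il1b and Il12b, held no match to these motifs and are not shown. RefSeq gave 9 promoters for 8 of the 10 members, and Il10 and Osm were not matched. Each run is the 250 bases before an annotated transcript start, written 5′ to 3′ on the strand of the gene, and capitals mark matches to one of 4 motifs searched on both strands.
Il1a promoter (GRCm38.p6 chr2:129309973-129310222, minus strand): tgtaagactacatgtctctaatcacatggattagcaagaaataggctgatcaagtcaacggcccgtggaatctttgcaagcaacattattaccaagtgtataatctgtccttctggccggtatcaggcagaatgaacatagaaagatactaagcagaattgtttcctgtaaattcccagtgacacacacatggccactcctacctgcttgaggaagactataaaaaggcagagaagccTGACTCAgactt
Il6 promoter (GRCm38.p6 chr5:30012864-30013113, plus strand): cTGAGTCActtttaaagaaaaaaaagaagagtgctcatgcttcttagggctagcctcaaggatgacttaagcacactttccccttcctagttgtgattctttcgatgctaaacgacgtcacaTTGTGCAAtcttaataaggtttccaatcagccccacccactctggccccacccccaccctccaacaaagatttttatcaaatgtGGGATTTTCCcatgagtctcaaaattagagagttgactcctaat
Lif promoter (GRCm38.p6 chr11:4257318-4257567, plus strand): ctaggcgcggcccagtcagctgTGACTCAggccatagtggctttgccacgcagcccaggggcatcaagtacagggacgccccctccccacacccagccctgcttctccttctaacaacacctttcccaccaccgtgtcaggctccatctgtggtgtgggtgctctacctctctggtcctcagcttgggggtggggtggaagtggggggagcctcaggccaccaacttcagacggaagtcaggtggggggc
Il18 promoter (GRCm38.p6 chr9:50554450-50554699, plus strand): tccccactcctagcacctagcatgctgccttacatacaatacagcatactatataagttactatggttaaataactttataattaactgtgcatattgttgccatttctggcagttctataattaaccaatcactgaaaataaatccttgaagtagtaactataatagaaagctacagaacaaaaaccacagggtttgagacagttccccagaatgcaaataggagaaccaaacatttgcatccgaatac
Il33 promoter (GRCm38.p6 chr19:29924863-29925112, plus strand): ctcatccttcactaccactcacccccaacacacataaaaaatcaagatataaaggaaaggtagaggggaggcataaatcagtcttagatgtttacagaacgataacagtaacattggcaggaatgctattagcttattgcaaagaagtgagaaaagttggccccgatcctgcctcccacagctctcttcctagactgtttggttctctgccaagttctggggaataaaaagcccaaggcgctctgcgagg
Il33 promoter (GRCm38.p6 chr19:29945540-29945789, plus strand): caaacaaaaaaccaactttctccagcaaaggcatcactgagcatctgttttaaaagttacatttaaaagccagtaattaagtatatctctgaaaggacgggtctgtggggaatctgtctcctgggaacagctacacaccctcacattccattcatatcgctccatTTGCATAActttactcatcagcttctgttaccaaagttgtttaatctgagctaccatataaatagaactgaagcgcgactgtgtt
The AP-1 motif TGANTCA was found in Il1a (12 bases before the start), Il6 (249 bases) and Lif (228 bases), and in 6.75% of all 32851 mouse promoters of this length. The NF-κB motif GGGNNTTNCC was found in Il6 alone among the members, 44 bases before the start, against 4.11% of all promoters. The C/EBP motif TTNNGCAA was found in Il6 and in the second Il33 promoter, against 9.56% of all promoters, while the STAT motif TTCNNNGAA matched none of the 9, against 7.02% of all. No position was shared by 2 of these motifs. The last 11 bases of the Lif run lie in what GENCODE annotates as Lif exon. A match describes letters only, and binding was not measured.

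Total counts per sample ranged from 3105119 to 13130158, and were lower in naïve brain (3105119 to 5161132) than in the tumors (5380395 to 13130158). The tissue label was checked with neuron markers, which summed to 3667 to 5632 reads scaled to library size (CPM) in naïve brain and to 39.0 to 1593 CPM in 11 of the 12 tumors. The remaining tumor, 005 replicate 3, stood apart from the other 005 tumors. It carried 3206 CPM of neuron markers, 4668 CPM of oligodendrocyte markers and 17.8% mitochondrial counts, against at most 508 CPM, 630 CPM and 6.42% in the other two, so the calls of cytokines in 005, and the counts over the pathway lists, are also given without it. To a lesser degree CT2A replicate 1 held more neuron (929 CPM) and oligodendrocyte markers (1194 CPM) than the other CT2A tumors (at most 190 and 380 CPM). GL261 replicate 2 held 1593 CPM of neuron markers and 11.3% mitochondrial counts, against at most 853 CPM and 5.88% in the other GL261 tumors. Each of these tumors had the least Il1b of its group, and the part of brain tissue in this was not tested. Ptprc, which encodes the leukocyte marker CD45, ranged from 1.74 to 4.49 CPM in naïve brain and 2.26 to 11.1 in Mut3, and was higher at 19.5 to 37.4 in CT2A, 37.7 to 85.6 in GL261 and 46.2 to 261 in 005. In bulk tissue, fewer cells of a type and less RNA per cell cannot be told apart, and this holds for every level below.

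Per unit of transcript length, Il18 was the most abundant of the 10 mRNAs in naïve brain at 18.4 ± 5.04 TPM, a read count scaled to transcript length and library (SD, n = 3), followed by Il33 at 4.37 ± 1.73 TPM and Il1b at 1.61 ± 0.718 TPM. The other 7 lay under 0.5 TPM on average, from Il6 at 0.343 ± 0.0961 TPM to Il10 at 0.0167 ± 0.0289 TPM. The ranking of the leading members changed in CT2A, where Il33 (2.94 ± 0.368 TPM) lay above Il1b (2.38 ± 1.89 TPM) and Il18 (1.97 ± 0.337 TPM), although the Il1b samples overlapped both. In GL261, 005 and Mut3, the mean of Il18 stayed first, at 8.10 ± 1.89, 9.47 ± 4.99 and 7.30 ± 2.51 TPM, and the mean of Il1b (2.89 ± 1.46, 5.74 ± 5.40 and 0.598 ± 0.199 TPM) lay above that of Il33 (1.51 ± 0.840, 3.63 ± 3.29 and 0.539 ± 0.456 TPM), with overlapping samples in all 3.

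**Figure D1:**
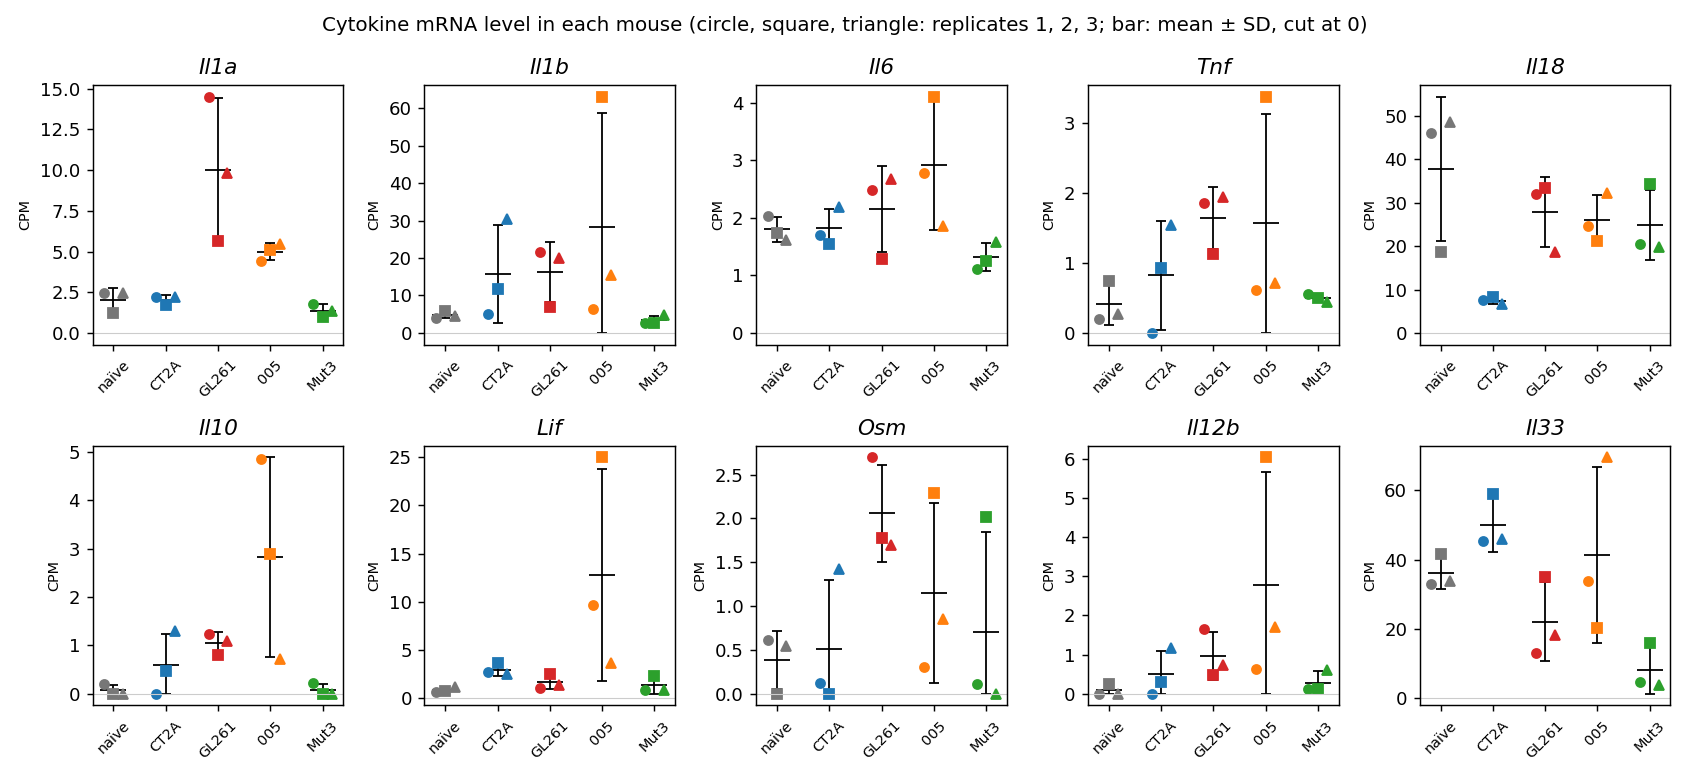
Levels of the 10 cytokine mRNAs in CPM (y axes, each with its own scale) in each of 15 mice by group (x axes), with circles, squares and triangles for replicates 1, 2 and 3 and black bars for the mean and SD, cut at 0. Il1a is highest in GL261, Lif and Il10 are highest in 005, Il18 is lowest in CT2A, and 005 replicate 2 (square) is the highest sample for Il1b, Il6, Tnf, Lif and Il12b.

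The question of the first comparison was which cytokines differed between each tumor and naïve brain. Differentially expressed (DE) genes had an adjusted p under 0.05 and a log2 fold change of 1 or more in either direction. Of the 9 members tested, 1 was DE in CT2A (Il18, lower), where 39.2% of all tested genes were DE. In GL261, 1 was DE (Il1a, higher) against 22.4% of all genes, in 005 2 were DE (Lif and Il12b, both higher) against 12.7%, and in Mut3 1 was DE (Il33, lower) against 37.8%. Counts of 1 or 2 of 9 are too small to set against these shares. Without 005 replicate 3 the number of DE genes in 005 rose from 2217 to 6535, which is 35.7% of those tested, and 4 members were DE, Il10, which then passed the filter, and Il1b beside Lif and Il12b. The median log2 fold change of the 9 was −0.44 in Mut3, 0.47 in CT2A, 1.51 in 005 and 1.73 in GL261, while the median of all tested genes lay between −0.08 and 0.11. A test over all 5 groups, with no threshold on the fold, found differences at an adjusted p under 0.05 for 6 of the 9 members (Il1a, Il1b, Il18, Lif, Il12b and Il33) against 52.1% of all genes.

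**Figure D2:**
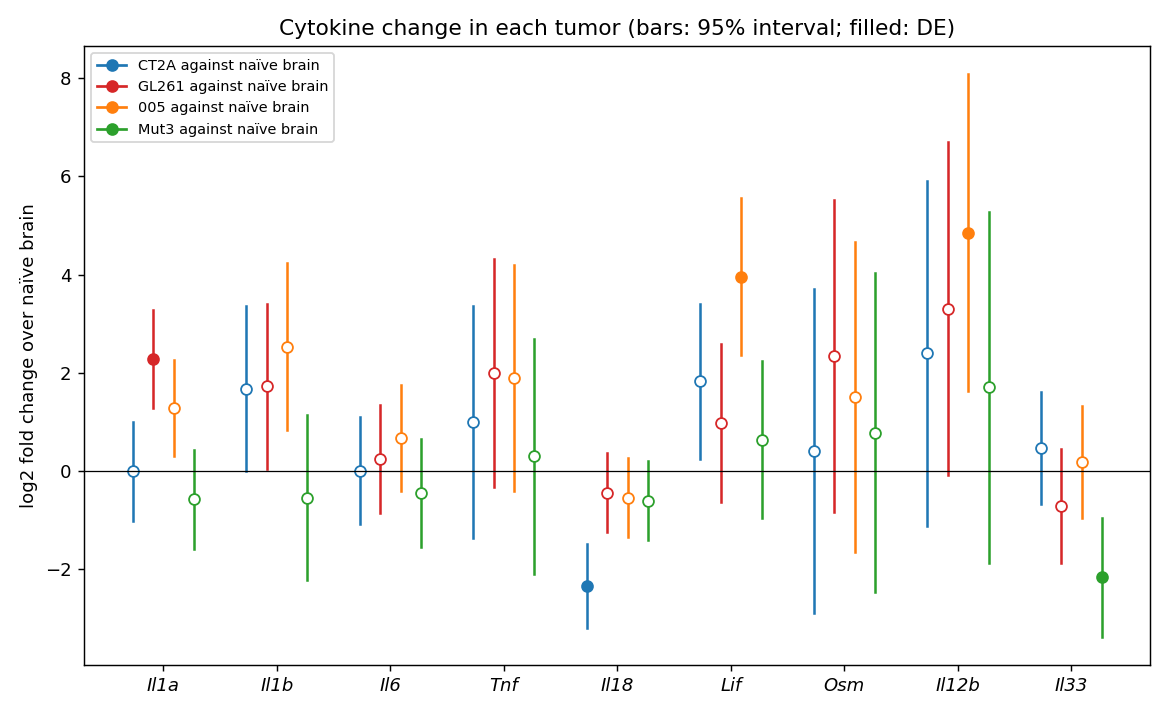
Log2 fold change over naïve brain (y axis) of the 9 tested cytokines (x axis) in CT2A, GL261, 005 and Mut3, with 95% intervals as bars and filled points for DE genes. The filled points are Il1a in GL261, Lif and Il12b in 005, Il18 in CT2A and Il33 in Mut3, and the intervals are widest for Tnf, Osm and Il12b, which had the fewest counts.

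Il1a encodes IL-1α, the alarm cytokine of the family (ENSMUSG00000027399, chromosome 2 from 129299610 to 129309972, minus strand, GRCm38). It counted 2.45, 1.25 and 2.43 CPM in naïve replicates 1, 2 and 3, 2.20, 1.71 and 2.20 in CT2A, 14.5, 5.66 and 9.83 in GL261, 4.43, 5.07 and 5.48 in 005 and 1.79, 1.01 and 1.32 in Mut3. In CPM all GL261 samples lay above all samples of the other groups. All 005 samples lay above naïve brain, CT2A and Mut3, which overlapped each other in CPM. In TPM 005 replicate 3 (0.721) lay above GL261 replicate 2 (0.480). All CT2A (0.111 to 0.181) and Mut3 (0.0811 to 0.141) samples lay below naïve brain (0.228 to 0.325) in TPM. In GL261 the log2 fold change over naïve brain was 2.28 (standard error 0.47, adjusted p = 0.00418). On log2(TPM + 1), a scale that understates the change of genes at this low level, it was 0.48 (adjusted p = 0.0140), short of the fold threshold, and each of the other Il1a calls below was lost on that scale too. In 005 it was 1.28 (standard error 0.46, adjusted p = 0.0786), which did not pass the test although the samples were separate, and without replicate 3 it was 1.14 (adjusted p = 0.0907). In the test on counts Il1a was flat in CT2A at −0.01 (95% interval −1.01 to 0.99), and in Mut3 it was −0.57 (95% interval −1.58 to 0.44). A transcript on the opposite strand, Gm14023, shares 222 exonic bases with Il1a and counted at most 5.81 reads in any sample, and whether the counting used strand is not stated in the sources used here.

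Il1b encodes IL-1β (ENSMUSG00000027398, chromosome 2 from 129364570 to 129371139, minus strand) and lies beside Il1a. Its levels were 4.08, 5.98 and 4.60 CPM in naïve brain, 5.01, 11.6 and 30.4 in CT2A, 21.8, 6.95 and 19.9 in GL261, 6.28, 63.1 and 15.6 in 005 and 2.57, 2.77 and 4.66 in Mut3. In CPM all GL261 and 005 samples lay above all naïve samples, CT2A replicate 1 lay within the naïve range, and Mut3 overlapped naïve brain. In TPM naïve replicate 2 (2.44) lay above GL261 replicate 2 (1.29) and 005 replicate 1 (1.05). CT2A replicate 1 (0.914) and all Mut3 samples (0.452 to 0.824) lay below all naïve samples (1.19 to 2.44) in TPM. The log2 fold change over naïve brain in 005 was 2.53 (standard error 0.80, adjusted p = 0.05001, just over the threshold). GL261 had 1.73 (adjusted p = 0.115), CT2A 1.68 (adjusted p = 0.0968) and Mut3 −0.54 (adjusted p = 0.610), so that none of the 4 was DE. With only the samples compared, Il1b passed in GL261 (1.85, adjusted p = 0.0144) and CT2A (1.76, adjusted p = 0.0434). In CT2A it also passed without CT2A replicate 1 (2.11, adjusted p = 0.0468) or without 005 replicate 2 (1.69, adjusted p = 0.0440). It passed in neither tumor under the other alternatives. Without 005 replicate 3 the value in 005 was 2.75 (adjusted p = 0.0178), and without replicate 2 it was 1.17 (adjusted p = 0.366). The sample with the most Il1b, 005 replicate 2, held 261 CPM of Ptprc and 10960 CPM of the 8 monocyte and macrophage markers, against 46.2 and 50.1 CPM of Ptprc in the other 005 tumors. The part of these cells in the Il1b level was not tested. Il1bos, an antisense transcript that shares 25 exonic bases with Il1b, counted at most 8.85 reads.

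**Figure D3:**
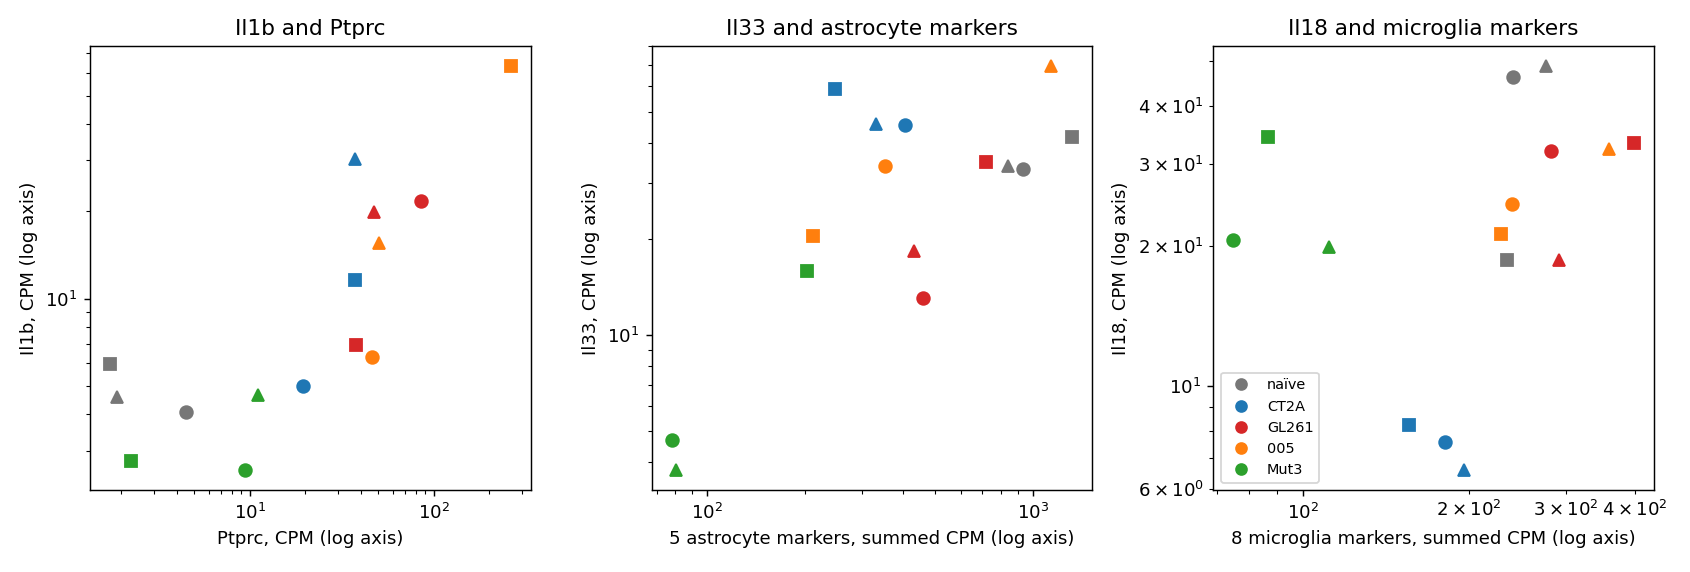
Cytokine level against cell type markers in the 15 mice, all in CPM on log axes, with Il1b against Ptprc (left), Il33 against the sum of 5 astrocyte markers (middle) and Il18 against the sum of 8 microglia markers (right), colored by group, with circles, squares and triangles for replicates 1, 2 and 3. The highest Il1b sample is also the highest for Ptprc, the 2 lowest Il33 samples are the 2 with the fewest astrocyte markers, and CT2A has the lowest Il18 while Mut3 has the fewest microglia markers.

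Il18 encodes IL-18, which drives interferon-γ release by T and NK cells (ENSMUSG00000039217, chromosome 9 from 50554827 to 50581840, plus strand). It measured 46.1, 18.7 and 48.7 CPM in naïve brain, 7.57, 8.23 and 6.59 in CT2A, 31.9, 33.3 and 18.7 in GL261, 24.6, 21.2 and 32.3 in 005 and 20.6, 34.2 and 19.9 in Mut3. All CT2A samples lay below every other sample, and in CPM the other 4 groups overlapped. Il18 fell in CT2A by 2.34 on the log2 scale (standard error 0.40, adjusted p = 9.96e-04), and this call held under all 24 alternatives tried. The changes in GL261 (−0.44, 95% interval −1.24 to 0.37), 005 (−0.54, 95% interval −1.34 to 0.27) and Mut3 (−0.60, 95% interval −1.41 to 0.20) did not pass the test, and without 005 replicate 3 the value in 005 was −0.79 (adjusted p = 0.146). These calls depend on the scale. In the limma fits of TPM, on log2(TPM + 1) and log2(TPM + 0.1), Il18 was DE and lower in GL261, at −1.08 and −1.16 (adjusted p = 0.0215 and 0.0271), and in Mut3, at −1.23 and −1.33 (adjusted p = 0.0104 and 0.0122). The 8 microglia markers summed to 234 to 276 CPM in naïve brain, 156 to 196 in CT2A, 74.96 to 112 in Mut3, 282 to 398 in GL261 and 229 to 358 in 005, and the part of these cells in the Il18 level was not tested.

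Il33 encodes IL-33, the nuclear alarm cytokine of glia (ENSMUSG00000024810, chromosome 19 from 29925114 to 29960718, plus strand). Its levels were 33.0, 41.6 and 33.8 CPM in naïve brain, 45.3, 59.0 and 45.9 in CT2A, 13.1, 34.9 and 18.3 in GL261, 33.8, 20.4 and 69.4 in 005 and 4.70, 15.9 and 3.78 in Mut3. On the CPM scale all CT2A samples lay above naïve brain, all Mut3 samples lay below naïve brain, CT2A and 005, and the 005 samples ran from below naïve brain to above CT2A. Il33 fell in Mut3 by 2.16 on the log2 scale (standard error 0.56, adjusted p = 0.00779), a call that held under all 24 alternatives, at −3.08 to −1.79. Leaving out Mut3 replicate 2 gave the value of −3.08. The other log2 fold changes did not pass, at 0.47 for CT2A (adjusted p = 0.4997), 0.19 for 005 (adjusted p = 0.828) and −0.71 for GL261 (adjusted p = 0.337). On the TPM scale, where the tumors lie lower against naïve brain throughout, the sign turned to −0.41 in CT2A and −0.39 in 005. The sign in 005 also rested on replicate 3, and without it the value was −0.48. The 5 astrocyte markers summed to 840 to 1320 CPM in naïve brain, 246 to 405 for CT2A, 432 to 719 for GL261, 351 and 212 in 005 replicates 1 and 2, 1135 in 005 replicate 3, and 78.0, 202 and 80.3 in Mut3 replicates 1, 2 and 3. Of these 5 markers, Aqp4, Slc1a2 and Gja1 were DE and lower in Mut3 than in naïve brain, and Gfap was DE and higher. Mut3 replicate 2 had the most Il33 and the most astrocyte markers of its group, while CT2A had fewer astrocyte markers than naïve brain and, in CPM, more Il33. The 7 oligodendrocyte markers summed to 1638 to 4208 CPM in naïve brain and to 309 to 492 in Mut3, where 5 of the 7 were DE and lower, and they were highest in 005 replicate 3, at 4668 CPM, which was also the sample with the most Il33. The part of astrocytes and oligodendrocytes in the Il33 level was not tested.

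Tnf encodes TNF (ENSMUSG00000024401, chromosome 17 from 35199381 to 35202007, minus strand) and was scarce. It measured 0.204, 0.747 and 0.270 CPM in naïve brain, 0, 0.932 and 1.55 in CT2A, 1.87, 1.13 and 1.94 in GL261, 0.618, 3.38 and 0.712 in 005 and 0.559, 0.503 and 0.440 in Mut3, which is 0 to 28 reads a sample. In CPM all GL261 samples lay above naïve brain, and the other tumors overlapped it. In TPM GL261 overlapped naïve brain too, with 0.263 in naïve replicate 2 and 0.210 in GL261 replicate 2. The log2 fold change was 1.99 for GL261, 1.90 for 005, 1.00 for CT2A and 0.30 for Mut3, with adjusted p between 0.181 and 0.849, and no tumor passed the test. The 95% interval in GL261 ran from −0.33 to 4.31.

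Il6 encodes IL-6, the acute-phase cytokine (ENSMUSG00000025746, chromosome 5 from 30013114 to 30019981, plus strand). It measured 2.04, 1.74 and 1.62 CPM in naïve brain, 1.71, 1.55 and 2.20 in CT2A, 2.49, 1.29 and 2.67 in GL261, 2.78, 4.10 and 1.85 in 005 and 1.12, 1.26 and 1.58 in Mut3. Mut3 lay below naïve brain in every sample, and in CPM the other tumors overlapped naïve brain. In TPM all CT2A samples (0.145 to 0.196) lay below naïve brain (0.238 to 0.426) as well. No tumor passed the test, with log2 fold changes of 0.68 in 005 (95% interval −0.40 to 1.75), 0.25 in GL261, 0.01 in CT2A and −0.44 in Mut3 (95% interval −1.54 to 0.65). In the test over 5 groups Il6 had an adjusted p of 0.331, with Tnf at 0.288 and Osm at 0.504.

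Lif encodes LIF, a cytokine of the IL-6 family that maintains stem cells and acts on glia (ENSMUSG00000034394, chromosome 11 from 4257557 to 4272514, plus strand). Levels were 0.612, 0.747 and 1.08 CPM in naïve brain, 2.69, 3.57 and 2.45 in CT2A, 1.04, 2.42 and 1.33 in GL261, 9.68, 24.99 and 3.63 in 005 and 0.783, 2.26 and 0.792 in Mut3. In CPM all 005 samples lay above every other sample, though replicate 3 exceeded the highest CT2A sample by little. All CT2A samples lay above GL261, Mut3 and naïve brain in CPM. In TPM the CT2A samples (0.150 to 0.221) overlapped GL261 (0.0627 to 0.182) and Mut3 (0.0546 to 0.173). Lif rose in 005 by 3.96 on the log2 scale (standard error 0.75, adjusted p = 0.00386), and by 4.33 without replicate 3 (adjusted p = 2.50e-04) or 3.03 without replicate 2 (adjusted p = 0.0215). With only naïve brain and 005 in the model the adjusted p was 0.0529. In CT2A the log2 fold change was 1.83 (standard error 0.74, adjusted p = 0.0585), just over the threshold although the samples were separate from naïve brain, and it passed with DESeq2 (adjusted p = 0.0462) and without 005 replicate 3 (adjusted p = 0.0290).

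Osm encodes oncostatin M, which activated myeloid cells release (ENSMUSG00000058755, chromosome 11 from 4236420 to 4241026, plus strand), and is the neighbor of Lif. It measured 0.612, 0 and 0.541 CPM in naïve brain, 0.122, 0 and 1.42 in CT2A, 2.69, 1.78 and 1.70 in GL261, 0.309, 2.29 and 0.854 in 005 and 0.112, 2.01 and 0 in Mut3. All GL261 samples lay above all naïve samples, by 11 to 14 reads against 0 to 3, and every other tumor overlapped naïve brain. The log2 fold change in GL261 was 2.34 (95% interval −0.82 to 5.51, adjusted p = 0.247), and no tumor passed the test. A count of 0 allows up to 3 reads, which is 0.747 CPM in naïve replicate 2.

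Il10 encodes IL-10 (ENSMUSG00000016529, chromosome 1 from 131019845 to 131024974, plus strand). It counted 1, 0 and 0 reads in naïve brain, 0, 3 and 10 in CT2A, 6, 5 and 9 in GL261, 47, 24 and 10 in 005 and 2, 0 and 0 in Mut3. All GL261 and 005 samples lay above all samples of naïve brain and Mut3, and 005 replicate 3, at 0.712 CPM, lay below the GL261 samples (0.808 to 1.24 CPM) and within the CT2A range. Summed over 3 mice, 81 reads in 005 against 1 in naïve brain gave a ratio of 31.9 per library size, with a 95% counting interval of 5.56 to 1275 that covers counting error only. As Il10 failed the filter it had no test in the main analysis. With the filter removed its log2 fold change was 4.89 in 005 over naïve brain (adjusted p = 0.0289), a value that depends on the handling of near-zero counts.

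Il12b encodes the p40 subunit of IL-12 and IL-23, made by dendritic cells and macrophages (ENSMUSG00000004296, chromosome 11 from 44400063 to 44414033, plus strand). Levels were 0, 0.249 and 0 CPM in naïve brain, 0, 0.311 and 1.16 in CT2A, 1.66, 0.485 and 0.728 in GL261, 0.618, 6.04 and 1.71 in 005 and 0.112, 0.126 and 0.616 in Mut3. In CPM all GL261 and 005 samples lay above all naïve samples, and 005 replicate 2 held 50 of the 80 reads of 005. In TPM naïve replicate 2 (0.0595) lay above GL261 replicate 2 (0.0512). Il12b was called higher in 005 (adjusted p = 0.0477, and 0.0231 without replicate 3), and the ratio of summed reads, 80 against 1, was 31.5 with a 95% counting interval of 5.49 to 1260. The call was lost in 12 of the 20 alternatives that tested Il12b, among them without 005 replicate 2 (adjusted p = 0.227). The 6 dendritic cell markers summed to 7.47 to 11.1 CPM in naïve brain and to 10.4, 24.5 and 16.6 in 005 replicates 1, 2 and 3, and the 8 monocyte and macrophage markers to 171 to 188 CPM in naïve brain and to 2011, 10960 and 1614 in 005. The part of these cells in the Il12b level was not tested.

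The second comparison was between tumors, where naïve brain plays no part in the fold change. Between CT2A and GL261, 2 members were DE against 7.77% of all genes, namely Il1a (−2.28, standard error 0.45, adjusted p = 0.00727) and Il18 (−1.90, standard error 0.39, adjusted p = 0.00891), both lower in CT2A. Without CT2A replicate 3 the Il18 difference was −1.82 (adjusted p = 0.0527). Il18 was also lower in CT2A than in 005 (−1.80, adjusted p = 0.0217), where 1 member was DE against 4.11% of all genes. Leaving out any 1 of the CT2A replicates took this call away, with adjusted p up to 0.113, and without 005 replicate 3 it stayed (−1.59, adjusted p = 0.0399) and Lif was DE as well. Against Mut3, 2 members were DE in CT2A, with 12.8% of all genes DE: Il18 was lower (−1.74, adjusted p = 0.00929) and Il33 was higher (2.63, standard error 0.57, adjusted p = 0.00739). CT2A thus had less Il18 than each of the other tumors and than naïve brain.

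GL261 and 005 differed in 1 member against 2.62% of all genes. Lif was lower in GL261 by 2.97 on the log2 scale (adjusted p = 0.0300), and this call was lost in 6 of 21 alternatives. It was lost without any 1 of the GL261 replicates and without 005 replicate 1 or 2 (−2.04, adjusted p = 0.156, without replicate 2), but not without 005 replicate 3 (−3.42, adjusted p = 0.00359). Il1a was higher in GL261 than in 005 in every sample on the CPM scale, by 1.00 (standard error 0.43, adjusted p = 0.295), which did not pass the test. Between GL261 and Mut3, 1 member was DE against 17.2% of all genes, Il1a at 2.85 (standard error 0.46, adjusted p = 0.00160). The contrast of 005 with Mut3 held the most DE members, 4 of 9 against 19.8% of all genes, all higher in 005. These were Il1a (1.85, adjusted p = 0.0125), Il1b (3.07, adjusted p = 0.0165), Lif (3.32, adjusted p = 0.00563) and Il33 (2.35, adjusted p = 0.0115). Without 005 replicate 3 they were 1.72, 3.30, 3.71 and 1.70, each still DE, and Il10 was DE as a further member. Lif was 2.38 without 005 replicate 2 (adjusted p = 0.0216). Il1b was not DE without 005 replicate 2 (1.71, adjusted p = 0.0918) or without Mut3 replicate 1 or 2, and with only these 2 groups in the model none of the 4 was DE. In that fit the log2 fold changes were 1.90 for Il1a, 3.104 for Il1b, 3.35 for Lif and 2.401 for Il33, with adjusted p from 0.0551 to 0.0754, and the number of DE genes in all fell from 3463 to 925.

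GL261 and 005, which the study described as immunologically active, were then set against CT2A and Mut3, which it described as inert. In this contrast 1 member was DE against 16.9% of all genes. Il1a had a log2 difference of 2.07 (standard error 0.32, adjusted p = 0.00151) toward the active lines, with all 6 samples at 4.43 to 14.5 CPM and the other 6 tumors at 1.01 to 2.20 CPM. Il18 was higher by 0.98 (adjusted p = 0.0204), short of the fold threshold, and its Mut3 samples overlapped GL261 and 005. Il1b at 1.56 (adjusted p = 0.0518), Lif at 1.23 (adjusted p = 0.0723) and Il12b at 2.03 (adjusted p = 0.0884) did not pass. Without 005 replicate 3 the count of DE members was 4 against 13.4% of all genes, with Il10, which then passed the filter, Il1b and Lif beside Il1a. Origin does not follow this division, as CT2A and GL261 were chemically induced and 005 and Mut3 come from genetically altered mice. Mut3 alone received a higher cell dose, so dose is not balanced between the sides. Other features of the 4 lines were not separated from this division. The study drew this division from RNA sequencing of these tumors, so it is not independent. The p-values here cover the spread between mice and not between lines.

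Receptors, antagonists, partners and targets of these cytokines were followed in 6 gene lists, of which 70 of 74 genes were tested. Against naïve brain, 11 were DE and higher in Mut3, where 17.9% of all tested genes were. The count was 32 in CT2A (19.0% of all genes), 32 in 005 (11.6%) and 28 in GL261 (14.6%), while 4 were lower in Mut3 (19.8% of all genes), 2 in CT2A (20.2%), 2 in GL261 (7.77%) and 0 in 005 (1.05%). The 8 monocyte and macrophage markers had median log2 fold changes of 4.82 in 005, 3.51 in GL261, 3.14 in CT2A and 1.15 in Mut3. Both these medians and the counts of higher genes were lowest in Mut3, but CT2A, GL261 and 005 did not keep the same order in both. Of 5 tested T cell markers, 4 were higher in CT2A, GL261 and 005 and 0 in Mut3, while Cd4 was DE and lower in CT2A and Mut3. All 7 neuron markers were lower in CT2A and Mut3, and 0 of 7 passed in GL261 and 005, though all 7 were lower in 005 without 005 replicate 3. The part of these cells in the list counts was not tested. Without 005 replicate 3, 44 of 71 were higher in 005, against 17.6% of all genes, made up of 10 of 15 receptor subunits, 7 of 7 antagonists and decoys, 5 of 8 genes of inflammasomes and release, 2 of 12 partners, 11 of 17 signal transducers and 9 of 12 target genes. Among 7 antagonists and decoys, Il1rn, Il18bp, Socs1 and Socs3 were higher in CT2A, GL261 and 005, and none of the 7 was DE in Mut3. Il1rn, the soluble antagonist of the IL-1 receptor, had a log2 fold change of 5.95 for 005 (adjusted p = 0.00182), 5.19 for GL261 (adjusted p = 0.00146), 4.49 for CT2A (adjusted p = 0.00223) and 1.85 for Mut3 (adjusted p = 0.122), and without 005 replicate 3 the 005 value was 6.22. Il18bp, which binds and blocks IL-18, ranged over the 3 mice of a group from 2.65 to 4.87 CPM in naïve brain, 4.92 to 18.7 in Mut3, 13.6 to 15.8 in CT2A, 19.3 to 163 in 005 and 113 to 312 in GL261. Of the 9 genes of inflammasomes and cytokine release, 8 were tested, and Pycard, Casp1 and Casp4 were higher in CT2A, GL261 and 005, Casp4 also in Mut3. Casp1, the protease that matures IL-1β and IL-18, rose by 3.24 in 005, 3.00 in GL261 and 2.92 in CT2A on the log2 scale, and its value in Mut3 was 1.67 (adjusted p = 0.0515). With 005 replicate 3 left out it rose by 3.62 in 005.

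Among 15 receptor subunits, 9 were higher in 005 (against 11.6% of all genes), 4 in GL261 (14.6%), 5 in CT2A (19.0%), where Lifr was lower, and 1 in Mut3 (17.9%). The same shares of all genes stand beside the counts of higher transducers and partners below. Tnfrsf1a, the main TNF receptor, was higher in all 4 tumors, with log2 fold changes from 1.77 in Mut3 (adjusted p = 0.0202) to 2.97 in 005 (adjusted p = 0.00386). Osmr, the oncostatin M receptor subunit, rose by 1.94 in 005 (adjusted p = 0.0125) and by 2.46 in GL261 (adjusted p = 0.00244). Of 17 signal transducers, 5 were higher in Mut3, where Jak1 was lower, 7 each in CT2A and GL261, and 6 in 005, which became 11 without 005 replicate 3. Irak4, Ripk1, Nfkb1 and Nfkbiz were higher in each of the 4 tumors. Of 11 tested partner subunits and related ligands, 3 were higher in CT2A (Clcf1, Ctf1 and Il15) and 1 lower (Il12a, the p35 subunit of IL-12, at −2.73, adjusted p = 0.0289). In Mut3, Ctf1 was higher and Ebi3 and Il34 lower. Tnfsf10 (TRAIL) was higher in GL261 and 005, and Il34, a ligand of the CSF1 receptor, fell by 3.33 on the log2 scale in Mut3 (standard error 0.43, adjusted p = 2.10e-04) and by 1.78 in GL261 (standard error 0.41, adjusted p = 0.00780).

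Of the 12 inducible target genes, 7 were higher in each of CT2A (against 19.0% of all genes), GL261 (14.6%) and 005 (11.6%) and 2 in Mut3 (17.9%). Ptgs2 was lower in GL261 and Mut3. Ptgs2, the cyclooxygenase induced by IL-1, measured 51.0 ± 19.7 CPM (SD, n = 3) in CT2A, 11.9 ± 4.48 in naïve brain, 8.82 ± 5.06 in 005, 3.61 ± 1.82 in GL261 and 1.97 ± 1.02 in Mut3. Lcn2, an acute-phase iron-binding protein, rose by 2.84 in GL261 (standard error 0.31, adjusted p = 1.00e-04) and by 1.11 in CT2A. In GL261 and 005 against CT2A and Mut3, where 12.6% of all genes were DE and higher, 21 of the 70 genes were higher and 0 were lower, 6 of them antagonists. Leaving out 005 replicate 3 gave 22 of 71, against 8.73% of all genes. Markers of several cell types were higher in the same contrast, among them Ptprc (2.41 on the log2 scale, adjusted p = 0.00555), 5 of 5 tested T cell markers, 7 of 7 neuron markers (median log2 difference 2.53), 5 of 8 microglia markers and 4 of 7 oligodendrocyte markers. Higher too were 3 of 5 astrocyte, 3 of 8 monocyte and macrophage, 3 of 6 tested neutrophil and 2 of 3 tested mast cell markers. For dendritic cells 1 of 6 markers was higher, for B cells 1 of 2 tested, and 0 of 4 tested for NK and for endothelial cells. Cxcr2 of the neutrophil list and Pdgfra of the fibroblast list were DE and lower. With 005 replicate 3 left out, 4 of 5 T cell markers and 5 of 7 neuron markers (median 1.57) were higher. The part of these cells in the counts was not tested.

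**Figure D4:**
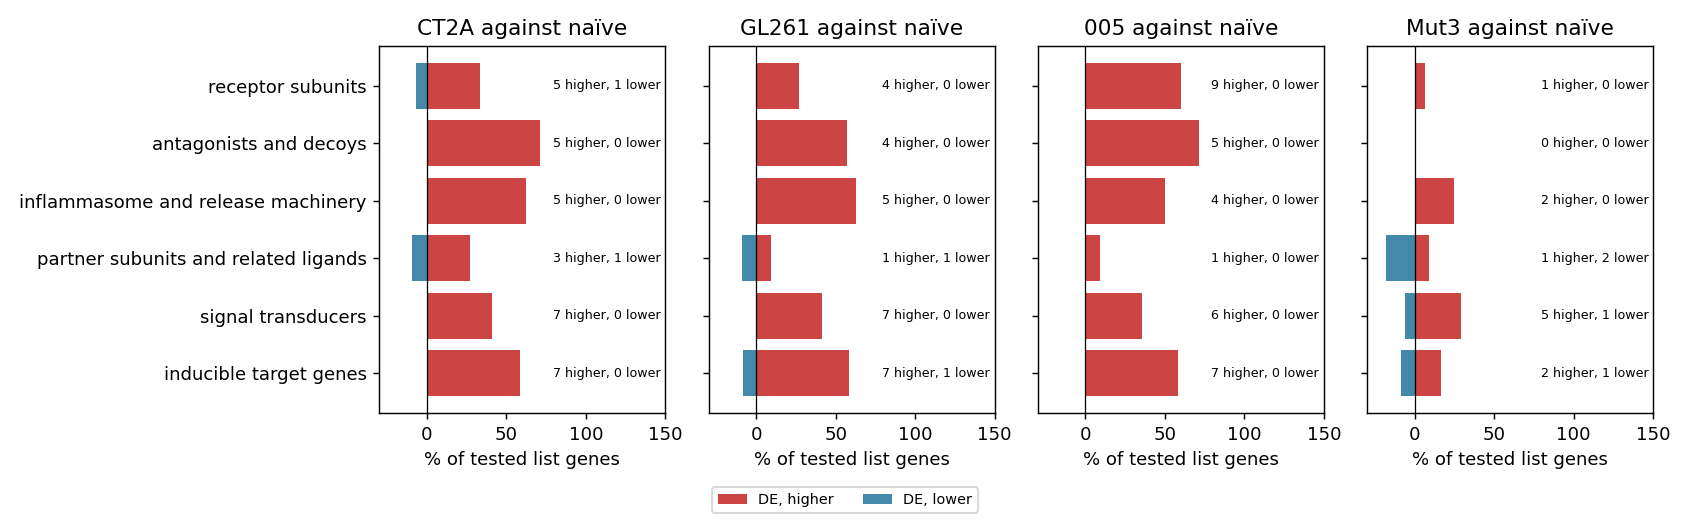
Share of tested genes of 6 cytokine pathway lists that were DE and higher (red, to the right) or lower (blue, to the left) than naïve brain (x axes, percent of the tested genes of each list) in CT2A, GL261, 005 and Mut3, with the counts printed at the right. Antagonists and decoys were higher for 5 of 7 genes in CT2A and 005 and 4 of 7 in GL261, and for 0 of 7 in Mut3.

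Genes with the most similar pattern were found for each tested cytokine by Pearson's r of log2 CPM over the 15 samples, among 11361 genes, as a description in which the samples share group and depth. Il1a was most like Lpcat2 (r = 0.92), Il1b like Ccrl2 (0.92), Il6 like Tnfaip3 (0.91), Tnf like C1s1 (0.84) and Il18 like Fahd2a (0.91). Lif was most like Cep85 (0.92), Osm like Olfml3 (0.86), Il12b like Il10rb (0.93) and Il33 like Mfap3l (0.95). Ccrl2 was among the 3 nearest genes of both Il1b and Tnf, and Ctsw of both Il1b and Il12b.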

How the data were processed

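RNA from 15 samples (3 mice in each of 5 groups) was sequenced. The authors deposited estimated counts and TPM per gene for each sample. Their notes name STAR 2.4.2a, Salmon, DESeq2 1.18.1 and mm10, without a role for each in these tables. The deposited estimated counts were rounded to whole numbers, genes with low counts were removed with filterByExpr, and counts were scaled by TMM. CPM are counts divided by the TMM-scaled library size. The groups were compared with edgeR 4.0.16 (quasi-likelihood test, R 4.3.3) in 1 model of all 15 samples, with Benjamini-Hochberg adjustment over 17481 genes. Standard errors are of the log2 fold change. TPM from the deposited tables were used for levels between genes, and were tested with limma 3.58.1 on log2(TPM + 1) or log2(TPM + 0.1) as alternatives, as was DESeq2 1.42.0 on counts. Each count has 3105119 to 13130158 reads behind it, and intervals of ratios cover counting error only.

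All 10 members are named, with genes of 6 pathway lists and the 3 genes most correlated with each member. The members and lists were chosen with earlier results of these data known. Gene positions came from GENCODE M21, promoters from RefSeq. Scripts were tested on simulated data. Replicate numbers name different mice.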

Additional observations from a re-analysis of the deposited data

Results flagged for a closer look

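A direct test of 9 cytokines in 6 tumor pairs passed the threshold for 11 combinations of a cytokine and a tumor pair, covering 5 of the cytokines. Of all tested genes, 2.62% (GL261 against 005) to 19.8% (005 against Mut3) were DE in a pair. In the 11 combinations the change over naïve brain was not the same in both lines. Given as log2 fold changes of the first tumor over the second, Il1a was −2.28 for CT2A against GL261, 2.85 for GL261 against Mut3 and 1.85 for 005 against Mut3. Il1b was 3.07 for 005 against Mut3. Il18 was −1.90 for CT2A against GL261, −1.80 for CT2A against 005 and −1.74 for CT2A against Mut3. Lif was −2.97 for GL261 against 005 and 3.32 for 005 against Mut3. Il33 was 2.63 for CT2A against Mut3 and 2.35 for 005 against Mut3. Those that involve the same tumor share its 3 samples and are not independent of each other.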

How the results depend on the processing

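Il18 in CT2A and Il33 in Mut3 against naïve brain, and Il18 in CT2A against Mut3, kept their calls in all 24 alternatives. Among values of single cytokines under an alternative, counting all changes over naïve brain but between tumors only those called as reported, 974 stayed on the same side of the threshold with the same direction, 40 lost a call, 22 gained one and 28 changed sign. The cause of these changes was not tested. The TPM fits tested only 4 of the cytokines (Il1a, Il1b, Il18 and Il33), and the filter of at least 10 counts in every sample left only 3 (Il1b, Il18 and Il33), so in the counts below Lif and Il12b with TPM, and Il1a, Lif and Il12b under that filter, are missing because they were not tested. With only the samples compared, 5 to 10 cytokines passed the filter, and Il12b in 005 over naïve brain was not tested. Square brackets give the number of DE genes among all tested in the same fit, where counted. For both TPM fits the order is log2(TPM + 1), then log2(TPM + 0.1). The number of DE cytokines against naïve brain in CT2A (1 as reported) [6858] was 2 with DESeq2 [7401] or mitochondrial genes left out [6862]. It was 2 with the replicate block [6373] and 3 with only the samples compared [6664]. In GL261 (1) [3913] it was 0 with at least 10 counts in every sample [2517] and 2 with only the samples compared [5042] or log2(TPM + 0.1) [6463]. In 005 (2) [2217] it was 3 with DESeq2 [3341] or without mitochondrial genes [2485], 4 with no filter [2276] and 1 with library size in place of TMM [1940]. It was 1 with at least 10 counts [1206] or with the replicate block [1762], and 0 with only the samples compared [222] or either TPM fit [3142 and 3775]. In Mut3 (1) [6601] it was 2 with either TPM fit [4925 and 6569]. Between CT2A and GL261 (2) [1358] it was 3 with only the samples compared [2353] and 1 with at least 10 counts [908] or log2(TPM + 1) [765]. Between CT2A and 005 (1) [719] it was 2 with DESeq2 [1775] and 0 with only the samples compared [108]. Between CT2A and Mut3 (2) [2231] it was 3 with DESeq2 [3205], no filter [2394] or only the samples compared [3060], and 1 with log2(TPM + 1) [1163]. Between GL261 and 005 (1) [458] it was 0 with at least 10 counts [194], only the samples compared [148] or either TPM fit [372 and 410]. Between GL261 and Mut3 (1) [3015] it was 3 with DESeq2 [4014] and 2 with no filter [3249] or only the samples compared [3798]. It was 0 with at least 10 counts [1531] or log2(TPM + 1) [1190]. Between 005 and Mut3 (4) [3463] it was 5 with DESeq2 [4319] or no filter [3667] and 2 with at least 10 counts [1742] or log2(TPM + 0.1) [1648]. It was 0 with only the samples compared [925] or log2(TPM + 1) [1085]. With GL261 and 005 set against CT2A and Mut3 (1) [2959] it was 2 with DESeq2 [3547], only the samples compared [2620], log2(TPM + 0.1) [1604] or no fold threshold. It was 3 with library size [2811] or no filter [3305], and 0 with log2(TPM + 1) [747]. Among the 5 groups (6) [9100] it was 7 with no filter [9261], 5 with the replicate block [7977] and 3 with at least 10 counts [5633] or either TPM fit [8993 and 9206].

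Leaving out 1 replicate also moved the number of DE genes among all tested, again given in square brackets. Against naïve brain, 1 to 3 cytokines were DE in CT2A [4683 to 7502] and 1 to 4 in 005 [1006 to 6535]. The count was 1 to 2 between CT2A and GL261 [599 to 2216], 0 to 2 between CT2A and 005 [183 to 791] and 0 to 1 between GL261 and 005 [192 to 1073]. It was 1 to 3 between GL261 and Mut3 [1433 to 4125], 2 to 3 between CT2A and Mut3 [1346 to 3222] and 3 to 5 between 005 and Mut3 [1762 to 3507]. It was 5 to 7 among the 5 groups [7651 to 10877], and 1 to 4 for the contrast of GL261 and 005 with the other tumors [2012 to 3314]. The log2 fold changes whose sign turned were all small or of few reads. Il1a in CT2A (−0.01) was 0.038 with DESeq2, 0.19 without mitochondrial genes, 0.084 with only the samples compared, 0.028 with the replicate block and −0.056 to 0.21 over left-out replicates. Il6 in CT2A (0.01) was −0.17 with library size and −0.14 to 0.21 over left-out replicates. Il33 was −0.41 in CT2A and −0.39 in 005 with log2(TPM + 1), −0.50 and −0.55 with log2(TPM + 0.1), and −0.48 to 0.52 in 005 over left-out replicates. Over left-out replicates Osm was −2.29 to 1.04 in CT2A and −2.58 to 1.37 in Mut3, Il6 in GL261 was −0.025 to 0.51, Tnf in Mut3 was −0.036 to 1.21 and Lif in Mut3 was −0.020 to 0.89. Against TMM-scaled CPM, TPM lowered the median gene over naïve brain by −0.60 for 005, −0.81 for GL261, −0.82 for Mut3 and −0.98 for CT2A on the log2 scale, and library size lowered CT2A by −0.18.

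The replicate block uses numbers that tie no mice together. Deviations of same-numbered samples had r from −0.33 to 0.26 over 30 pairs, with 1 pair over 0.1. The block changed 2 calls against naïve brain, adding Lif in CT2A (adjusted p = 0.0361) and losing Il12b in 005 (adjusted p = 0.0741). Depth limits Tnf, Osm, Il10 and Il12b most, with 0 to 50 reads a sample.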

Other observations

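Per 100 counts of Ptprc, Il1b measured 91.8, 354 and 250 in naïve brain replicates 1, 2 and 3, where replicates 2 and 3 hold only 6.68 and 6.94 counts of Ptprc, and 27.1, 124 and 42.3 in Mut3, where replicate 2 holds 18.1. It was 25.5, 31.1 and 81.4 in CT2A, 25.3, 18.4 and 42.4 in GL261 and 13.5, 24.2 and 31.1 in 005, and the 4 tumors overlapped. Ptprc itself changed with group, and these ratios were not tested.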
